A study of Mus musculus with 9 samples.

Results

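The unfolded protein response and ER quality control genes are described here as a set of 38 genes, chosen by symbol: chaperones, lectin chaperones, protein disulfide isomerases, stress sensors with their transcription factors, ATF4-branch targets, factors of ER-associated degradation (ERAD) and subunits of the translocon. All 38 symbols were found among the 24421 genes of the table, and all 38 were among the 15583 genes that passed the filter on low counts, which required 0.3 CPM, a count relative to the size of the library, in at least 2 of the 9 mice. Poly(A) RNA was sequenced from tdTomato-positive cells sorted from the kidney cortex of 9 mice, with 3 in each of the groups db/m, db/db-dapa and db/db. The comparison of db/db with db/m mice addresses diabetes, and the comparison of db/db-dapa with db/db mice addresses its treatment with an SGLT2 inhibitor.

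All 3 groups were on C57BL/6 and carried SLC34a1GCE, a tamoxifen-inducible Cre placed in the locus of a phosphate transporter of the proximal tubule, together with R26tdTomato, a reporter that Cre switches on. Every mouse, the controls included, received 5 injections of 3 mg tamoxifen, given at 8 weeks of age. db/db mice lack a working leptin receptor in both copies of Lepr and become obese and hyperglycemic, whereas db/m mice keep a normal copy and are not diabetic. db/db-dapa mice drank 1.5 mg/kg/day dapagliflozin for 8 weeks, and db/db mice drank vehicle for that time. Whether db/m mice also drank vehicle, and the sex of the mice, are not given in the sources used here. GEO's labels name the tissue as kidney, and the sort is taken from the methods. All 10 markers of the proximal tubule were above 0 in each mouse. Their summed level was 17464 to 18205 CPM in db/m, 21618 to 26412 in db/db and 22632 to 29341 in db/db-dapa mice. Markers of other cells were present too, with 561 to 1976 CPM for the thick ascending limb. Collecting duct markers summed to 209 to 647 CPM in db/m, 242 to 431 in db/db and 153 to 245 in db/db-dapa mice. In the same order, macrophage and dendritic cell markers summed to 213 to 492, 129 to 359 and 99.2 to 321 CPM. Those of endothelium summed to 50.4 to 116, 58.5 to 183 and 42.0 to 174 CPM. Podocyte markers summed to 249 CPM in db/db-dapa replicate 1 (17.6 to 79.2 in the other mice), and red cell markers to 1462 in db/db replicate 2 (29.6 to 421 in the others). The part of these differences in the values below was not tested.

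Secretory and membrane proteins enter the endoplasmic reticulum through the translocon, where chaperones and disulfide isomerases fold them and ERAD returns misfolded proteins to the cytosol for degradation. When misfolded proteins accumulate, the sensors IRE1 (gene Ern1), PERK (Eif2ak3) and ATF6 start the unfolded protein response. IRE1 splices Xbp1 mRNA, ATF6 is released as a transcription factor by proteolysis, and PERK slows translation while favouring that of ATF4. Splicing, cleavage and phosphorylation are not visible in counts per gene, so the values below are transcript levels of sensors and targets, not activities. In the proximal tubule, much of this machinery serves transporters and endocytic receptors of the brush border.

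The count table summed to 2733349 in the shallowest library (db/db replicate 1) and to 9033123 in the deepest (db/db-dapa replicate 3), and a count of 3 was worth between 0.339 and 1.02 CPM. For CPM, library sizes were scaled by edgeR's TMM method. Mice of the same group correlated over tested genes with Pearson's r from 0.955 to 0.992. Libraries differed with transcript length. Genes with transcripts over 5000 bases had a median deviation from the mean of the 9 mice of 0.37 in db/db replicate 3, 0.22 in db/db-dapa replicate 2 and 0.31 in db/db-dapa replicate 3, against -0.36 in db/m replicate 3, on the log2(CPM + 1) scale. Genes under 1500 bases had medians of -0.44, -0.24, -0.27 and 0.47 in the same 4 libraries. The summed level of 7 markers of S3, the last segment of the proximal tubule, also differed between groups, at 25185 to 36484 CPM in db/m, 1585 to 3689 in db/db and 3845 to 7662 in db/db-dapa mice, of which Kap alone made up 85.3% to 96.9%. Of these 7 markers, 3 (Kap, Slc22a7 and Slco1a1) were lower in db/db than in db/m mice at adjusted p under 0.1, whereas Slc5a1 and Aadat had log2 fold changes of 0.38 and -0.0076, and 1 marker was at 0 in 1 db/db-dapa mouse. Some values below are also given from a fit with offsets for transcript length. How much of the differences below goes with transcript length or with these S3 markers was not tested. In such bulk samples, fewer cells of a kind and less RNA per cell cannot be told apart.

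Many targets of the response carry short elements in their promoters that its factors bind, and these elements are shown as background on the members. The branches compared below were not assigned by these elements. RefSeq promoter windows of GRCm38.p6, from 250 bases before to 50 after the start of the gene, were given for 33 of the 38 members. The ER stress element (ERSE), to which ATF6 and XBP1 bind with NF-Y, reads CCAAT, 9 bases of any kind, then CCACG. On either strand it was found in the windows of 9 members, which is 27.3% of 33, and in those of 0.137% of 27025 genes. The members were Hspa5, Hsp90b1, Dnajc3, Creld2, Calr, Canx, Pdia6, Derl3 and Syvn1. The fixed letters of the element are in capitals in 6 of them, each printed on the strand on which it matched.
Hspa5, chr2:34772013-34772055, + strand: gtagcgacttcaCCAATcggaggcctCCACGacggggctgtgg
Hsp90b1, chr10:86705521-86705563, + strand: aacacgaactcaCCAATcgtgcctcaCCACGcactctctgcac
Calr, chr8:84847063-84847105, + strand: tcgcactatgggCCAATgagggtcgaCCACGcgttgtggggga
Pdia6, chr12:17266479-17266521, + strand: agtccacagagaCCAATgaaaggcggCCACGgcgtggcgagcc
Dnajc3, chr14:118937815-118937857, + strand: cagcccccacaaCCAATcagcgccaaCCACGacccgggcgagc
Syvn1, chr19:6046520-6046562, + strand: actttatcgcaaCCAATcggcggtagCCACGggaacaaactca
In Hspa5 the element began 65 bases before the RefSeq start, in Syvn1 44 and in Calr 162 bases before it. The gene position of Hspa5 given below is from GENCODE and begins earlier, at 34771970, so by that position the element lies inside the gene. Hsp90b1 held a second copy, beginning 212 bases before the start.

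A second form of the element (ERSE-II) reads ATTGG, 1 base of any kind, then CCACG, and was found in Herpud1 and Dnajb11 among the members and in 0.0444% of all genes. The unfolded protein response element (UPRE) reads TGACGTGG, whose other strand begins with the CCACG of ERSE, and it was found in Vcp alone among the members and in 0.714% of all genes. The C/EBP-ATF element (CARE), which ATF4 binds, reads TGATGNAA and was found in Asns, Chac1, Trib3 and Herpud1 among the members, which is 12.1% of 33, and in 4.51% of all genes. The following 4 segments show these other elements, with their fixed letters in capitals.
Herpud1, chr8:94386365-94386399, + strand: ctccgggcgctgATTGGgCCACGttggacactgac
Vcp, chr4:43000602-43000633, - strand: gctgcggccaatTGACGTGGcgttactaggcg
Asns, chr6:7693213-7693244, - strand: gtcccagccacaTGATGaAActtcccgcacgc
Chac1, chr2:119351037-119351068, - strand: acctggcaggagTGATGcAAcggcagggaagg
A match of letters is a description and does not show that a factor was bound in these cells.

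The members spanned a wide range of levels. Per kb of the longest annotated transcript, 9 of the 38 members were above 100 CPM over the 9 mice and 5 were below 2. The highest were Calr at 408, Herpud1 at 328 and Hspa5 at 317 CPM per kb, followed by P4hb at 269. The lowest were Chac1 at 0.355 and Trib3 at 0.419 CPM per kb, with Asns at 1.24, Ern1 at 1.55 and Derl3 at 1.91. Abundant folding enzymes thus stood beside low members, of which Trib3 had 0 to 13 and Chac1 0 to 9 counts per library. Ern1, with its long transcript, had 10 to 222 counts. The sum over all members was 9227, 9842 and 7596 CPM in db/m replicates 1 to 3, 7592, 8797 and 7036 in db/db, and 9470, 9336 and 7376 in db/db-dapa mice, so the 3 groups overlapped. Replicate 3 was the lowest mouse of its group for 27 of 38 members in db/m, for 23 in db/db-dapa and for 22 in db/db mice.

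**Figure D1:**
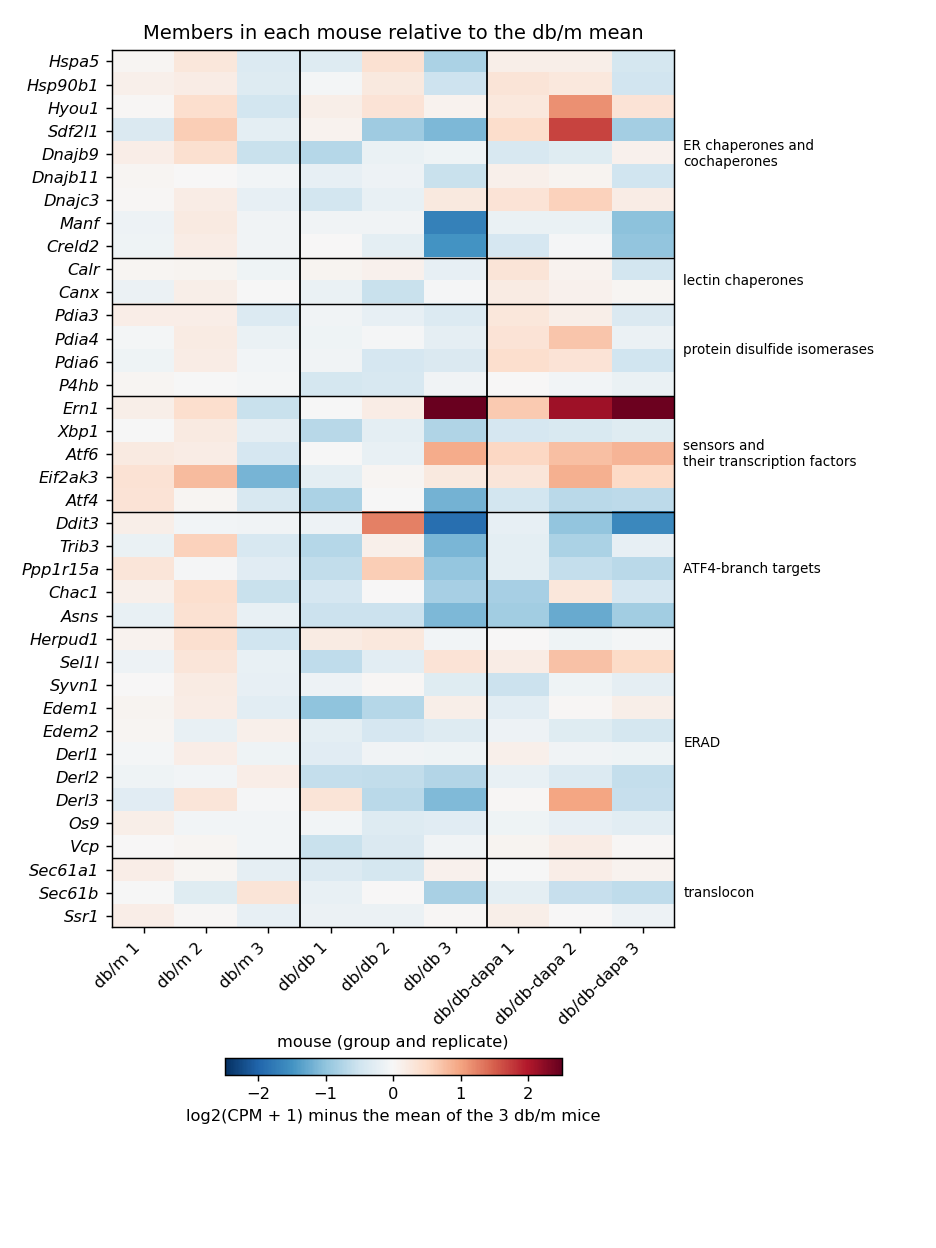
The level of each of the 38 members (rows, grouped by role) in each of the 9 mice (columns), as log2(CPM + 1) minus the mean of the 3 db/m mice, with red for higher and blue for lower values. Ern1 is dark red in db/db 3, db/db-dapa 2 and db/db-dapa 3, and ATF4-branch targets are mostly blue in db/db 3 and in the db/db-dapa mice.

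No member differed between groups by the rule for calls, which asked of edgeR's quasi-likelihood test a Benjamini-Hochberg adjusted p under 0.1 (over all 15583 genes) and a log2 fold change past 1 in size. That count was 0 of 38 in each of the 3 comparisons, where the same rule called 1.24% of all genes in db/db versus db/m, 0% in db/db-dapa versus db/db and 1.05% in db/db-dapa versus db/m mice. At an adjusted p under 0.1 with any fold change the members again numbered 0 in each comparison, against 1.67%, 0% and 1.31% of all genes. At an unadjusted p under 0.05, 0 members were higher and 3 lower in db/db versus db/m mice (7.89% of members, against 13.7% of all genes). In db/db-dapa versus db/db mice 4 were higher and 0 lower (10.5%, against 5.19% of all genes), and in db/db-dapa versus db/m mice 2 were higher and 3 lower (13.2%, against 18.2%). With DESeq2, 2 members passed an adjusted p of 0.1 in db/db versus db/m mice (Derl2 and Xbp1, both lower), 0 in db/db-dapa versus db/db and 2 in db/db-dapa versus db/m mice (Ern1 higher and Asns lower, both also past the fold threshold). Among genes to which DESeq2 gave an adjusted p, 6.5%, 0.185% and 7.93% passed in these comparisons, beside 2 of 36, 0 of 34 and 2 of 36 members, and 2.96%, 0.115% and 4.04% were also past the fold threshold. With limma on log2(CPM + 1) the members numbered 0 in each comparison, against 1.75%, 0% and 1.19% of all genes. The p-values measure the spread between these mice, with 3 per group.

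Members with no overlap between groups were counted as a second description. In db/db mice, 0 members lay above all db/m mice (8.28% of all genes did) and 7 lay below them, which is 18.4% of members against 8.13% of all genes: Dnajb11, P4hb, Xbp1, Asns, Edem2, Derl2 and Vcp. In db/db-dapa mice, 3 members lay above all db/db mice (Canx, Eif2ak3 and Vcp, 7.89% against 4.9% of all genes) and 0 lay below them (5.29% of all genes). Against db/m mice, 3 members lay higher in db/db-dapa mice (Dnajc3, Ern1 and Atf6, against 14.4% of all genes) and 7 lay lower (Manf, Xbp1, Atf4, Ddit3, Asns, Derl2 and Os9, 18.4% against 13.7% of all genes). These comparisons share groups of mice, so their values are given side by side and not combined.

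The median log2 fold change of the 38 members was -0.23 in db/db versus db/m mice, with 33 members below 0, beside a median of 0.02 over all genes tested. It was 0.22 in db/db-dapa versus db/db mice, with 31 members above 0, beside -0.01 over all genes. It was -0.03 in db/db-dapa versus db/m mice, with 17 members above and 21 below 0, beside -0.02 over all genes. Scaling by total counts moved the median of all genes to 0.13 in db/db versus db/m mice, and that of the members to -0.12. Between mice, the standard deviation of the members' median level within groups was 0.15 on the log2 scale. Heat shock genes that act outside the ER, mostly cytosolic but with the mitochondrial Hspd1 and Hspe1 among them, were lower by more. Of 13 such genes, 6 were lower in db/db than in db/m mice at adjusted p under 0.1 (1.67% of all genes passed), and the median was -0.91. In db/db-dapa versus db/db mice their median was 0.70, with 0 of 13 at adjusted p under 0.1 in edgeR (0% of all genes). There, 8 were higher at an unadjusted p under 0.05 (5.19% of all genes, either direction), and 2 passed an adjusted p of 0.1 with DESeq2 (0.185% of all genes).

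**Figure D2:**
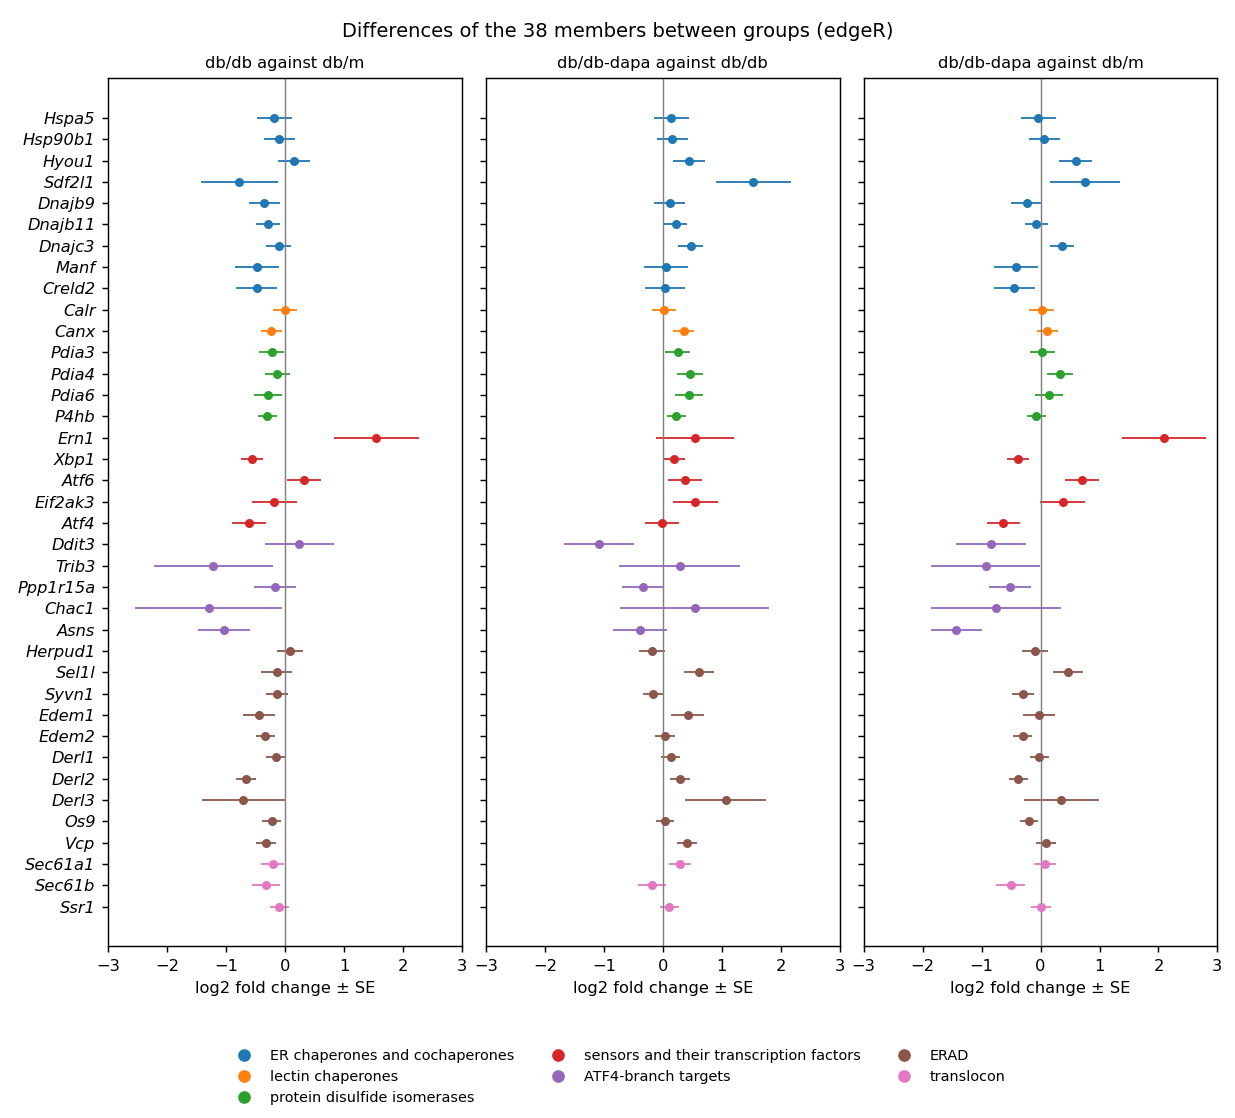
Log2 fold change of each member with its standard error from edgeR, in db/db versus db/m (left), db/db-dapa versus db/db (middle) and db/db-dapa versus db/m mice (right), colored by role. Most points lie left of 0 in the left panel (33 of 38) and right of 0 in the middle panel (31 of 38), and the bars of 1 standard error are clear of 0 for 24 and 18 members in these panels. The widest errors belong to Trib3 and Chac1.

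Of the 9 ER chaperones and cochaperones, 8 were below 0 in db/db versus db/m mice (median log2 fold change -0.29), and 9 of 9 were above 0 in db/db-dapa versus db/db mice (median 0.16). Hspa5, chromosome 2 from 34771970 to 34777547 of GRCm38, encodes BiP, the main Hsp70 chaperone of the ER, which also restrains the sensors. It was at 1249, 1467 and 956 CPM in db/m, 969, 1570 and 696 in db/db, and 1339, 1339 and 892 in db/db-dapa mice. The groups overlapped widely, and replicate 3 was the lowest mouse in each of them. The log2 fold changes were -0.18 (SE 0.30), 0.14 (SE 0.29) and -0.04 (SE 0.29) in db/db versus db/m, in db/db-dapa versus db/db and, last, in db/db-dapa versus db/m mice, with adjusted p = 0.818, 0.935 and 0.953. Without db/db replicate 3, the second of these was -0.08.

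Sdf2l1, a partner of BiP that is strongly induced by ER stress, had the largest log2 fold change among the members in db/db-dapa versus db/db mice. It lies on chromosome 16 from 17130138 to 17132383. Its level was 6.46, 13.6 and 7.11 CPM in db/m, 9.18, 4.20 and 3.41 in db/db, and 11.9, 29.9 and 4.30 in db/db-dapa mice. db/db-dapa replicate 2 was the highest of the 9 mice, while replicate 3 lay within the range of db/db mice. The log2 fold change in db/db-dapa versus db/db mice was 1.53 (SE 0.64), with adjusted p = 0.854 from edgeR, and Sdf2l1 was 1 of the 4 members at an unadjusted p under 0.05. Without db/db-dapa replicate 2 the value was 0.60. Hyou1, an Hsp110-like nucleotide exchange factor of BiP, was also highest in db/db-dapa replicate 2, at 247 CPM, where the other 8 mice were between 80.6 and 150 CPM. Dnajc3, the BiP cochaperone P58IPK, was at 131, 147 and 111 CPM in db/m, 93.8, 112 and 154 in db/db, and 163, 191 and 147 in db/db-dapa mice. Its db/db-dapa values were above those of all db/m mice but overlapped those of db/db mice, with log2 fold changes of 0.37 (SE 0.21, adjusted p = 0.352) and 0.47 (SE 0.21, adjusted p = 0.854).

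The other members of this role showed smaller or less even differences. Hsp90b1, the ER form of Hsp90, averaged 759 ± 139 CPM in db/m mice (SD, n = 3), while db/db mice had 710 ± 182 (SD, n = 3) and db/db-dapa mice had 793 ± 223 (SD, n = 3). Manf, a secreted ER stress factor, and Creld2, an ER protein induced with it, were lowest in db/db replicate 3, at 38.9 and 25.3 CPM, where the other db/db mice were at 120 to 121 CPM for Manf and 61.2 to 73.1 CPM for Creld2. Both were next lowest in db/db-dapa replicate 3, at 62.0 and 36.4 CPM. Manf overlaps Rbm15b on the same strand, and how reads were shared between them is not stated. Dnajb9 and Dnajb11, J-domain partners of BiP, had log2 fold changes of -0.35 and -0.29 in db/db versus db/m mice and of 0.12 and 0.22 in db/db-dapa versus db/db mice.

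The lectin chaperones calreticulin and calnexin hold newly made glycoproteins in the ER until they fold. Calr, chromosome 8 from 84841850 to 84846934, was at 915, 924 and 823 CPM in db/m, 935, 951 and 774 in db/db, and 1107, 945 and 648 in db/db-dapa mice. The group means were 888, 886 and 900 CPM, and the log2 fold change was 0.00 (SE 0.21) in db/db versus db/m and 0.02 (SE 0.21) in db/db-dapa versus db/db mice. Canx, chromosome 11 from 50293961 to 50325673, was at 462, 567 and 504 CPM in db/m, 455, 348 and 500 in db/db, and 586, 552 and 526 in db/db-dapa mice. All db/db-dapa mice were above all db/db mice, and both groups overlapped db/m mice. Its log2 fold change between them was 0.35 (SE 0.18), with adjusted p = 0.854.

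Protein disulfide isomerases form and rearrange disulfide bonds. All 4 members were below 0 in db/db versus db/m mice, between -0.30 and -0.13 on the log2 scale, and above 0 in db/db-dapa versus db/db mice, between 0.23 and 0.46. P4hb, the most abundant of them per kb, was at 861, 832 and 809 CPM in db/m, 619, 631 and 784 in db/db, and 845, 792 and 748 in db/db-dapa mice. Its db/db values were below all db/m values, and its log2 fold change was -0.30 (SE 0.16, adjusted p = 0.45). Pdia4 was at 113, 135 and 103 CPM in db/m, 108, 114 and 99.0 in db/db, and 147, 189 and 106 in db/db-dapa mice. Only db/db-dapa replicates 1 and 2 stood above all other mice, and the log2 fold change in db/db-dapa versus db/db mice was 0.46 (SE 0.21, adjusted p = 0.854). Pdia6 was at 170, 208 and 175 CPM in db/m, 173, 136 and 142 in db/db, and 247, 234 and 129 in db/db-dapa mice. The same 2 mice were highest, while db/db-dapa replicate 3 was the lowest of the 9, and the log2 fold change in db/db-dapa versus db/db mice was 0.44 (SE 0.24, adjusted p = 0.854). Pdia3 was between 441 and 688 CPM in all mice.

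**Figure D3:**
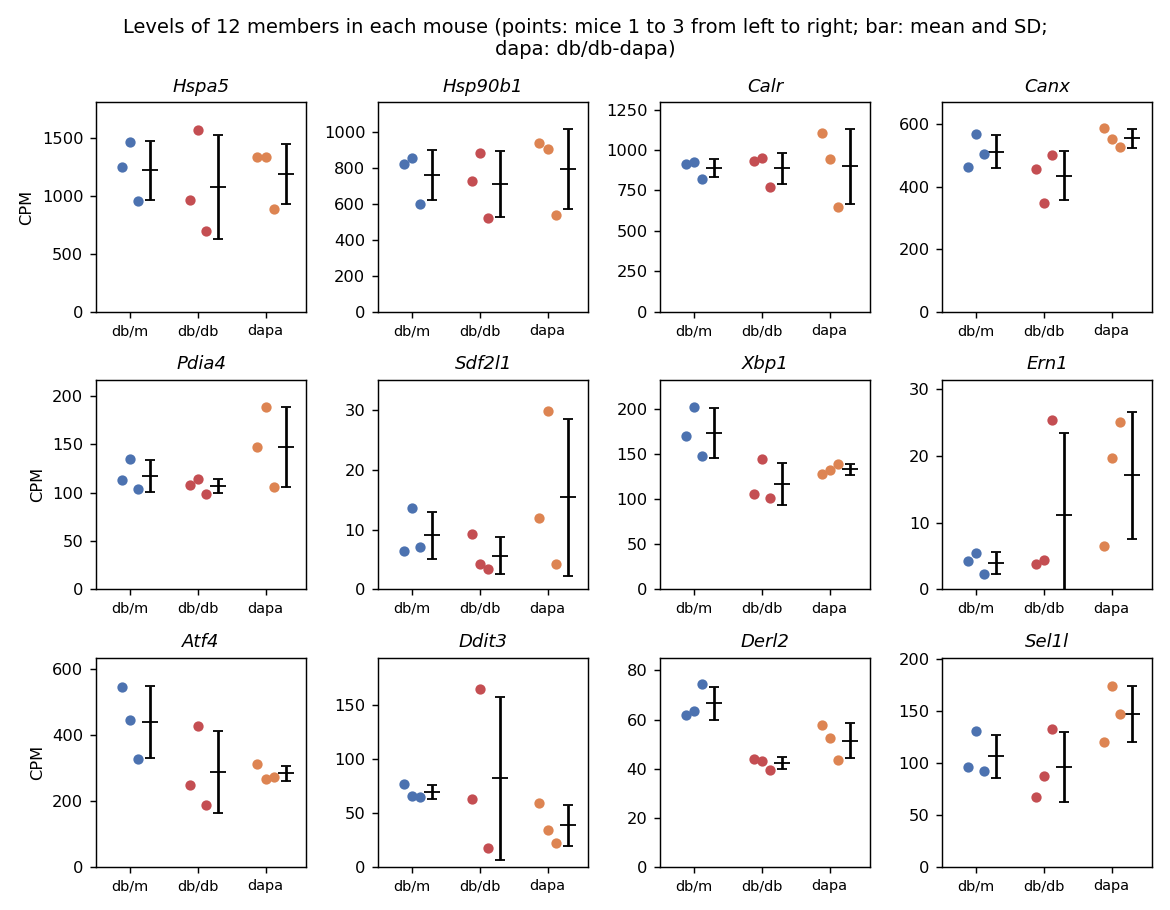
Levels of 12 members in CPM in each mouse (points), with the mean and standard deviation of each group of 3 mice (black bar, drawn only above 0). Derl2 and Xbp1 lie lower in the 3 db/db mice than in the 3 db/m mice, Ern1 is high in 1 db/db and 2 db/db-dapa mice, and Ddit3 is spread from 17.8 to 165 CPM within db/db mice.

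The 5 sensors and transcription factors had log2 fold changes of both signs. Ern1, chromosome 11 from 106394650 to 106487852, encodes IRE1, the kinase and RNase that splices Xbp1 mRNA. It was at 4.25, 5.41 and 2.22 CPM in db/m, 3.74, 4.40 and 25.4 in db/db, and 6.53, 19.7 and 25.1 in db/db-dapa mice. Replicates 2 and 3 of db/db-dapa mice and replicate 3 of db/db mice stood far above the others, and all db/db-dapa mice were above all db/m mice. The log2 fold change was 2.09 (SE 0.72, adjusted p = 0.201) in db/db-dapa versus db/m, 1.55 (SE 0.72, adjusted p = 0.377) in db/db versus db/m and 0.54 (SE 0.66, adjusted p = 0.887) in db/db-dapa versus db/db mice. Without db/db replicate 3 the value in db/db versus db/m mice was 0.025, and with only replicates 1 and 2 of each group it was -0.24. The longest transcript of Ern1 has 6946 bases, and the 3 libraries in which it was high were those in which transcripts over 5000 bases were high as a class. With offsets for transcript length, the values were 1.76 in db/db-dapa versus db/m and 1.19 in db/db versus db/m mice.

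Xbp1, chromosome 11 from 5520659 to 5525893, encodes the factor that IRE1 activates. It was at 170, 202 and 147 CPM in db/m, 105, 144 and 101 in db/db, and 127, 132 and 139 in db/db-dapa mice. All db/db and all db/db-dapa mice were below all db/m mice. Xbp1 had a log2 fold change of -0.57 (SE 0.19, adjusted p = 0.218) in db/db versus db/m, -0.38 (SE 0.19, adjusted p = 0.298) in db/db-dapa versus db/m and 0.19 (SE 0.19, adjusted p = 0.87) in db/db-dapa versus db/db mice, and in the first of these it passed an adjusted p of 0.1 with DESeq2. The counts do not part its spliced from its unspliced form.

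Atf6, chromosome 1 from 170704674 to 170867771, was at 45.7, 44.3 and 28.6 CPM in db/m, 38.4, 34.0 and 74.3 in db/db, and 55.9, 66.0 and 70.7 in db/db-dapa mice. All db/db-dapa mice were above all db/m mice, and db/db replicate 3 was the highest of the 9. The log2 fold change in db/db-dapa versus db/m mice was 0.70 (SE 0.29), with adjusted p = 0.25. In db/db versus db/m mice the value was 0.32 (SE 0.29), and -0.14 without db/db replicate 3. The longest transcript of Atf6, with 7246 bases, also falls in the class of over 5000 bases.

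Eif2ak3, chromosome 6 from 70844515 to 70905245, encodes PERK, the kinase that slows translation. It was at 51.0, 69.3 and 17.1 CPM in db/m, 33.3, 40.6 and 47.1 in db/db, and 49.0, 73.6 and 56.1 in db/db-dapa mice. db/db-dapa mice were all above db/db mice, and db/m mice overlapped both groups. Eif2ak3 had a log2 fold change of 0.55 (SE 0.38, adjusted p = 0.854) in db/db-dapa versus db/db mice. Atf4, chromosome 15 from 80255184 to 80257541, the factor translated when PERK is active, was at 543, 445 and 327 CPM in db/m, 246, 426 and 188 in db/db, and 310, 267 and 273 in db/db-dapa mice. All db/db-dapa mice were below all db/m mice, and db/db mice overlapped both groups. Atf4 had a log2 fold change of -0.63 (SE 0.28, adjusted p = 0.273) in db/db-dapa versus db/m and -0.61 (SE 0.29, adjusted p = 0.376) in db/db versus db/m mice.

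**Figure D4:**
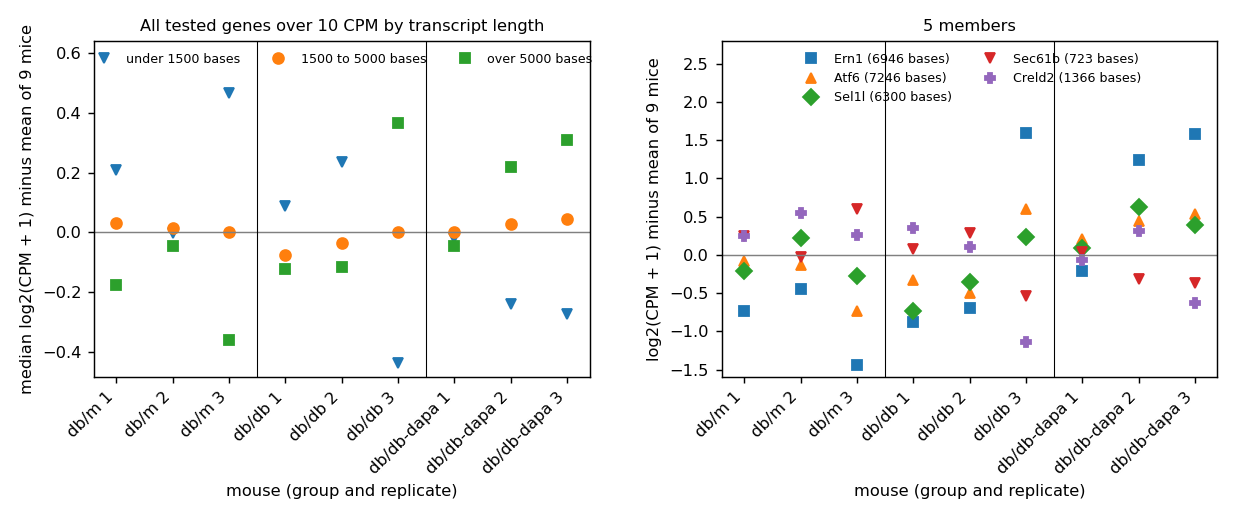
Left, median deviation of log2(CPM + 1) from the mean of the 9 mice, in each mouse, for tested genes over 10 CPM in 3 classes of transcript length. Right, the same deviation for 5 members, of which Ern1, Atf6 and Sel1l have transcripts over 5000 bases and Sec61b and Creld2 under 1500 bases. The first 3 are high and Sec61b low in db/db 3, db/db-dapa 2 and db/db-dapa 3. Creld2 is low in db/db 3 and db/db-dapa 3 but not in db/db-dapa 2.

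ATF4-branch targets had the lowest medians of log2 fold change of the roles, -1.04 in db/db versus db/m, -0.34 in db/db-dapa versus db/db and -0.84 in db/db-dapa versus db/m mice, and 0 of 5 passed an adjusted p of 0.1 in any of them. Below 0 were 4, 3 and 5 of the 5 targets in these comparisons, in that order. The median of -1.04 is the value of Asns, a low member. Below it lay Trib3 at -1.21 (SE 1.01) and Chac1 at -1.30 (SE 1.24), whose levels were the lowest of the members. The more abundant Ddit3 and Ppp1r15a had 0.24 (SE 0.59) and -0.18 (SE 0.35) in db/db versus db/m mice. Ddit3, chromosome 10 from 127290774 to 127296288, encodes CHOP, a factor tied to cell death under lasting stress. It was at 76.7, 65.6 and 64.8 CPM in db/m, 62.5, 165 and 17.8 in db/db, and 59.3, 34.4 and 21.9 in db/db-dapa mice. db/db mice held both the highest and the lowest value of the 9, and all db/db-dapa mice were below all db/m mice. The log2 fold change in db/db-dapa versus db/db mice was -1.09 (SE 0.60, adjusted p = 0.854), and it turned on single db/db mice. Without db/db replicate 2 it was -0.018, and without db/db replicate 3 it was -1.56 and passed both thresholds (1.75% of all genes then did). Reads of Ddit3 may be shared with Mars, which overlaps it on the other strand, since whether strand was used in counting is not stated.

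Ppp1r15a, which encodes GADD34, the phosphatase subunit that restores translation, was at 170, 135 and 111 CPM in db/m, 88.7, 210 and 69.1 in db/db, and 115, 90.5 and 85.3 in db/db-dapa mice. As with Ddit3, db/db replicate 2 was the highest mouse and db/db replicate 3 the lowest. Its log2 fold change was -0.34 (SE 0.35) in db/db-dapa versus db/db mice, and 0.30 without db/db replicate 2. In db/db replicate 2 the summed level of 13 immediate-early genes was also the highest, at 8651 CPM, where the other 8 mice were between 3102 and 6705 CPM. Whether that bears on these 2 members was not tested.

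Asns, chromosome 6 from 7675169 to 7693254, encodes asparagine synthetase, an ATF4 target that amino acid shortage also induces, and it is named here after its values were seen. It was at 3.31, 5.41 and 3.33 CPM in db/m, 2.38, 2.40 and 1.26 in db/db, and 1.70, 1.05 and 1.70 in db/db-dapa mice. All db/db and all db/db-dapa mice were below all db/m mice. Asns had a log2 fold change of -1.04 (SE 0.45, adjusted p = 0.335) in db/db versus db/m and -1.43 (SE 0.44, adjusted p = 0.172) in db/db-dapa versus db/m mice, and the second passed both thresholds with DESeq2. Trib3, a pseudokinase, and Chac1, which degrades glutathione, were at or under 2.27 CPM in all mice, and Trib3 was at 0 in 1 mouse and Chac1 in 2 mice. At these levels differences were not detectable: the log2 fold changes had standard errors between 0.92 and 1.26.

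Of the 10 ERAD members, 9 were below 0 in db/db versus db/m mice (median -0.28) and 8 were above 0 in db/db-dapa versus db/db mice (median 0.21). Derl2, chromosome 11 from 71007164 to 71019841, a derlin that carries substrates out of the ER, had the smallest p among the members in db/db versus db/m mice and is named after its values were seen. It was at 61.7, 63.7 and 74.4 CPM in db/m, 43.8, 43.2 and 39.4 in db/db, and 57.9, 52.5 and 43.7 in db/db-dapa mice. All db/db mice were below all db/m mice, and the spread within db/db mice was small. Derl2 differed by a log2 fold change of -0.66 (SE 0.17, adjusted p = 0.108, edgeR) in db/db versus db/m, 0.29 (SE 0.17, adjusted p = 0.854) in db/db-dapa versus db/db and -0.37 (SE 0.16, adjusted p = 0.264) in db/db-dapa versus db/m mice. The first passed an adjusted p of 0.1 with DESeq2, with a stricter filter and with offsets for transcript length. Derl2 overlaps Mis12 on the other strand, and 6 of its 9 values in the table are not whole, so some of its reads may be shared.

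Vcp, chromosome 4 from 42979963 to 43000507, encodes the ATPase that pulls ERAD substrates into the cytosol, and had the smallest p of the members in db/db-dapa versus db/db mice. Its level was 528, 542 and 500 CPM in db/m, 355, 407 and 494 in db/db, and 547, 592 and 533 in db/db-dapa mice. db/db mice were below both other groups without overlap. Its log2 fold change was 0.41 (SE 0.17, adjusted p = 0.854) in db/db-dapa versus db/db and -0.32 (SE 0.17, adjusted p = 0.427) in db/db versus db/m mice. Both comparisons use the same 3 db/db mice.

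Sel1l, chromosome 12 from 91806043 to 91849157, is the scaffold of the ubiquitin ligase Hrd1, which Syvn1 encodes. Sel1l was at 96.5, 131 and 92.6 CPM in db/m, 67.3, 87.8 and 133 in db/db, and 120, 174 and 148 in db/db-dapa mice. Here db/db replicate 3 lay with the db/db-dapa mice, and the log2 fold change of 0.61 (SE 0.26, adjusted p = 0.854) became 0.94 and passed an adjusted p of 0.1 without it (2.69% of all genes then passed), and was between 0.42 and 0.75 when another mouse was left out. Syvn1 did not follow Sel1l in its values, at 102, 116 and 86.8 CPM in db/m, 92.8, 103 and 81.6 in db/db, and 68.7, 92.9 and 86.1 in db/db-dapa mice, with a log2 fold change of -0.16 (SE 0.18) in db/db-dapa versus db/db mice. Edem1, which marks glycoproteins for ERAD, was at 39.1 and 47.8 CPM in db/db replicates 1 and 2 and at 87.7 in replicate 3, against 66.2 to 90.7 in the 6 other mice. Without db/db replicate 3, Edem1 passed an adjusted p of 0.1 in db/db versus db/m and in db/db-dapa versus db/db mice (1.94% and 2.69% of all genes then did). The longest transcripts of Sel1l and Edem1 have 6300 and 6077 bases.

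Herpud1, an ER membrane protein of the Hrd1 complex and the most abundant ERAD member per kb, was at 659, 823 and 440 CPM in db/m, 712, 744 and 592 in db/db, and 625, 572 and 596 in db/db-dapa mice. The groups overlapped, and the log2 fold change was 0.09 (SE 0.22) in db/db versus db/m and -0.19 (SE 0.22) in db/db-dapa versus db/db mice. Derl3 was low, between 0.632 and 5.91 CPM, and like Sdf2l1 was highest in db/db-dapa replicate 2 and lowest in db/db replicate 3. The longest transcripts of Derl3 and Sdf2l1 have 1321 and 1108 bases. Markers of plasma cells, which rely on ER folding, summed to between 0.525 and 5.51 CPM in the 9 mice. Only 2 of the 4 listed markers entered this sum, since Igkc and Ighm were not matched. Edem2, Os9, a lectin that delivers substrates to Hrd1, and Derl1 had log2 fold changes of -0.33, -0.23 and -0.16 in db/db versus db/m mice and of 0.03, 0.04 and 0.14 in db/db-dapa versus db/db mice.

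Among translocon members, Sec61a1, the channel, was at 135, 124 and 102 CPM in db/m, 93.8, 87.6 and 130 in db/db, and 119, 135 and 127 in db/db-dapa mice. Sec61b, a small subunit and the highest of the role per kb, was at 49.1, 40.1 and 62.6 CPM in db/m, 43.5, 50.2 and 28.0 in db/db, and 42.0, 33.0 and 31.7 in db/db-dapa mice. For both genes db/db replicate 3 stood apart from the other db/db mice, upward for Sec61a1 and downward for Sec61b. The log2 fold changes in db/db-dapa versus db/db mice were 0.29 (SE 0.19) and -0.18 (SE 0.24), with adjusted p = 0.854 and 0.893, and that of Sec61b was 0.06 with offsets for transcript length. Ssr1, a translocon-associated protein, was between 84.4 and 110 CPM in all mice. Its longest transcript, at 9333 bases, is the longest of the members. Ssr1 was at 99.1 CPM in db/db replicate 3 and at 98.6 and 88.9 in db/db-dapa replicates 2 and 3.

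The branches were compared over targets assigned from general knowledge, not from the promoter elements. ATF6-branch targets were Hspa5, Hsp90b1, Calr, Pdia4, Hyou1, Creld2, Manf, Sdf2l1, Herpud1 and Xbp1. XBP1-branch targets were Dnajb9, Dnajb11, Dnajc3, Edem1, Syvn1, Derl1, Derl2, Pdia6, Sec61a1, Sec61b and Ssr1. The 10 ATF6-branch targets had median log2 fold changes of -0.16 in db/db versus db/m, 0.15 in db/db-dapa versus db/db and -0.01 in db/db-dapa versus db/m mice, and the 11 XBP1-branch targets had -0.29, 0.22 and -0.03. All 11 XBP1-branch targets were below 0 in db/db versus db/m mice, and 8 of the 10 ATF6-branch targets were. Above 0 in db/db-dapa versus db/db mice were 9 of 11 and 9 of 10, respectively. Of the 3 branches, ATF4-branch targets alone had a median below 0 in db/db-dapa versus db/db mice, at -0.34 over 5 genes, whereas 27 other ATF4 and amino acid response genes had a median of 0.11. No target of a branch passed an adjusted p of 0.1 in edgeR, and differences between branches were not tested.

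Within groups the branches also parted by mouse. The median deviation from the db/m mean of ATF6-branch targets was -0.02, 0.04 and -0.64 on the log2(CPM + 1) scale in db/db replicates 1 to 3, and 0.20, 0.12 and -0.44 in db/db-dapa replicates 1 to 3. For XBP1-branch targets it was -0.29, -0.16 and -0.10 in db/db, and -0.01, 0.02 and -0.13 in db/db-dapa mice. ATF4-branch targets were at -0.54, 0.13 and -1.12 in db/db, and at -0.25, -0.80 and -0.67 in db/db-dapa mice. Replicate 3 was thus the lowest mouse for ATF6-branch targets in both groups, whereas for XBP1-branch targets it was the highest in db/db and the lowest in db/db-dapa mice.

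The 9 members whose promoter window held the ER stress element had median log2 fold changes of -0.18 in db/db versus db/m, 0.16 in db/db-dapa versus db/db and 0.06 in db/db-dapa versus db/m mice. The 22 members with a window and neither form of the element had -0.32, 0.24 and -0.22. The 4 members with the C/EBP-ATF element had -1.13, 0.05 and -0.85, and apart from Herpud1 they were the low members Asns, Chac1 and Trib3. These sets hold few genes and share roles, and their difference was not tested.

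Other genes of the pathway were listed apart from the members. Of 114 such genes 112 were tested, and their median log2 fold change was -0.14 in db/db versus db/m mice, with 80 below 0, and 0.17 in db/db-dapa versus db/db mice, with 80 above 0. In db/db-dapa versus db/m mice it was -0.01, with 55 above and 57 below 0. At adjusted p under 0.1, 0 were higher and 1 lower in db/db versus db/m, 0 in either direction in db/db-dapa versus db/db, and 0 higher and 1 lower in db/db-dapa versus db/m mice. Of all genes, 1.67%, 0% and 1.31% passed in these comparisons. At an unadjusted p under 0.05 the counts were 1 higher and 15 lower, 4 higher and 4 lower, and 5 higher and 8 lower. These are 14.3%, 7.14% and 11.6% of the 112 genes, against 13.7%, 5.19% and 18.2% of all genes. With DESeq2, 0 higher and 5 lower, 0 in either direction, and 0 higher and 4 lower passed an adjusted p of 0.1. Among all genes to which DESeq2 gave an adjusted p, 6.5%, 0.185% and 7.93% passed. The gene that passed was Sec11a in both cases with edgeR, a catalytic subunit of the signal peptidase that trims proteins entering the ER. It was at 133, 131 and 158 CPM in db/m, 78.9, 76.2 and 65.2 in db/db, and 99.2, 69.1 and 71.6 in db/db-dapa mice. All mice of both db/db groups were below all db/m mice, with log2 fold changes of -0.94 (SE 0.19, adjusted p = 0.0433) and -0.81 (SE 0.19, adjusted p = 0.0914). By list, the medians in db/db versus db/m mice were -0.16 for 24 other folding enzymes and glycan-processing genes, -0.13 for 17 other ERAD factors, -0.28 for 24 other translocation, signal peptide and glycosylation factors, -0.12 for 27 other ATF4 and amino acid response genes and 0.04 for 20 other regulators. For the other ATF4 and amino acid response genes, the medians were 0.11 in db/db-dapa versus db/db and -0.04 in db/db-dapa versus db/m mice.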

How the data were processed

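RNA sequencing of sorted tdTomato-positive cells from 9 mice was analysed, with groups and replicate numbers from GEO's labels. The authors made poly(A) libraries with a stranded kit, ran single-end sequencing and, per the labels' processing notes and the methods, used TopHat2 2.0.13, Bowtie2 2.2.3, SAMtools 0.1.19, Cufflinks 2.2.1 and the mm10 build. The deposited table is named as FPKM, but holds estimated counts: 85.9% of values above 0 are whole numbers and column sums differ. The counting tool of the authors and its use of strand are not given in the sources used here, so genes that overlap others are uncertain.

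Counts were rounded and tested with edgeR 4.0.16 (quasi-likelihood test in its earlier form, TMM scaling, the library size being the sum over the whole table) in R 4.3.3. The 9 mice were fitted together without a replicate block, with Benjamini-Hochberg adjustment over the 15583 tested genes. As in the methods, a call needed an adjusted p below 0.1 and a log2 fold change past 1 in size. Standard errors were derived from the F values. DESeq2 1.42.0 and limma 3.58.1 were alternatives, beside other filters, scalings and left-out mice. Fits were tested on simulated data. Figures were drawn with matplotlib 3.10.9.

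The members and all gene lists were chosen with earlier results of these data known. Values in every mouse are given for sensors and their factors, the 2 members per role with the smallest p in db/db-dapa versus db/db mice, the highest member per role per kb, and a few more for comparison, and other pathway genes were named only at adjusted p under 0.1. Gene positions and transcript lengths are from GENCODE's annotation of GRCm38, and promoter windows from RefSeq, where Manf, Hyou1, Atf6, Derl1 and Sec61a1 had no entry. Of the pathway and marker symbols listed, March6, Trbc2, Igkc and Ighm were not matched. Depth was 2733349 to 9033123 counts per mouse, which bears on counting error only and not on the spread between mice.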

Additional observations from a re-analysis of the deposited data

How the results depend on the processing

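As reported, 0 members passed in any comparison, and most alternatives gave 0 as well. At adjusted p under 0.1, DESeq2 gave 2 members in db/db versus db/m (Derl2 and Xbp1; 797 of all genes) and 2 in db/db-dapa versus db/m mice (Asns and Ern1, 2 also past the fold threshold; 996 of all genes). The filter at 1 CPM in 3 mice gave 1 (Derl2) in db/db versus db/m, as did offsets for transcript length (1, Derl2), an alternative chosen after seeing the data. Using replicates 1 and 2 of each group only, also chosen after seeing the data, gave 1 member in db/db versus db/m (Edem1), which was called past both thresholds (1). The share of all genes passing with that filter, those offsets and those replicates is not given here, so these counts of 1 stand without a background. limma-voom with sample quality weights gave 5 members in db/db-dapa versus db/db (Atf6, Dnajc3, Edem1, Sel1l and Vcp, all higher), where 899 of all genes passed. In db/db-dapa versus db/m mice it gave 13, 5 higher and 8 lower, where 4884 of all genes passed. Of these 13, 3 were called, where 1619 of all genes (10.4%) were called. Fitting only the 2 groups compared gave 4 in db/db-dapa versus db/m (Asns, Atf4, Atf6 and Ern1), of which 2 were called. Of all genes, 1492 passed and 630 (4.04%) were called there. Leaving out 1 mouse at a time gave 0 to 1 members at adjusted p under 0.1 in db/db versus db/m, 0 to 3 in db/db-dapa versus db/db (0 to 1 called) and 0 to 3 in db/db-dapa versus db/m mice (0 to 2 called). Leaving out db/db replicate 3 gave the highest of these counts: Edem1 in the first, Ddit3, Edem1 and Sel1l in the second, and Asns, Atf6 and Ern1 in the third comparison, where 302, 419 and 1652 of all genes passed. In that fit 1.48%, 1.75% and 4.26% of all genes were called. The causes of these differences were not tested. The median of the members moved by less than the spread between mice (SD 0.15) under each alternative.

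The deviations of same-numbered mice had correlations between -0.323 and 0.563. Replicate 3 of db/db with replicate 3 of db/db-dapa gave 0.563, the highest between any groups, followed by 0.402 for their replicates 1. Their replicates 2 gave -0.159, and same-numbered db/m with db/db mice gave -0.131, -0.238 and -0.323 for replicates 1 to 3. Not every mouse correlated best with its own number. With 3 mice per group, these values cannot decide whether the numbers mark a pairing. With a replicate block, 0 members passed in each comparison, against 222, 0 and 187 of all genes, and the members' medians were -0.25, 0.22 and -0.05.

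The direction turned for some named members. In db/db versus db/m mice, Eif2ak3 was 0.018 and 0.025 with limma at pseudocounts of 1 and 0.1, and -0.57 to 0.24 when mice were left out. Ddit3 was -0.26 and -0.27 in these limma fits, -0.14 with the replicate block and -0.83 to 0.73 when mice were left out. Atf6 was -0.096 with quality weights, -0.33 with replicates 1 and 2 only and -0.14 to 0.52 when mice were left out, and Ern1 was -0.24 with replicates 1 and 2 only. In db/db-dapa versus db/db mice, Calr was -0.0069 in both limma fits, -0.059 with quality weights, -0.042 and -0.039 with upper quartile and total count scaling, and -0.14 to 0.23 when mice were left out. Atf4 was 0.066 in both limma fits, 0.051 with the block, 0.052 with length offsets, and -0.23 to 0.39 when mice were left out. Leaving out mice gave -0.62 to 0.30 for Ppp1r15a, -0.39 to 0.0083 for Sec61b and -0.080 to 0.52 for Hspa5, and length offsets gave 0.056 for Sec61b. In db/db-dapa versus db/m mice, Eif2ak3 was -0.017 to 0.79 when mice were left out. With 3 mice per group and a smallest library of 2733349 counts, modest differences of low members such as Trib3 and Chac1 were not detectable.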
